A study of Mus musculus with 12 samples.

Results

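Transcripts of the 5 genes of the NFAT family of transcription factors, Nfatc1, Nfatc2, Nfatc3, Nfatc4 and Nfat5, were followed in mouse corneas. They are 5 of the 18194 genes that a probe set with a single gene symbol represents on the arrays. The rule names the 5 genes and uses no measured value. They carry 23 probe sets, and the brightest by its mean over 12 arrays stands for each gene. The other probe sets served as a check.

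NFAT proteins are transcription factors with a DNA-binding domain related to that of the Rel family, and most of them sit phosphorylated in the cytoplasm of a resting cell. A rise in calcium activates the phosphatase calcineurin, which strips phosphates from Nfatc1 to Nfatc4 and lets them enter the nucleus. Nfat5 lacks the calcineurin-binding region and is known for the response to high salt. Rcan1, formerly Dscr1, encodes a protein that binds and restrains calcineurin, and one of its promoters is itself switched on by NFAT. In endothelial cells this loop is known to limit the response to vascular growth factor. The arrays measure transcripts, and neither phosphorylation nor the location of NFAT proteins was measured.

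RNA of the whole cornea of C57BL/6J mice was hybridised to 12 Affymetrix arrays, 1 array per sample, in 8 groups. Intact corneas came from wild type (WT), mice null for Apoe (ApoeKO, ApoE-/- in the labels), mice null for Dscr1 (Dscr1KO, Dscr-1-/-) and mice null for both (double KO), with 2 arrays per genotype that the labels call biological replicates. Sutured corneas have 1 array per group: WT and Dscr1KO collected 5 days after suturing, and WT and the transgenic line Dscr-1 Tg (Tg) collected 7 days after it. Apoe encodes a cholesterol-carrying apolipoprotein of plasma. For the transgene's promoter, the extent of the Dscr1 deletion, and the animals' sex and age, the sources used here give nothing.

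Several facts of the libraries bear on every comparison. Array medians lay between 15.6 and 21.1 intensity units, at a trimmed mean of 100 on every array. The library labelled ApoeKO replicate 1 read 849.3 for Apoe, within the WT values of 1030.5 and 776.5, whereas ApoeKO replicate 2 read 7.5. Dscr1KO replicate 2 is named Dscr-1-/- in its title and genotype and ApoE-/- in its source, and it read 316.8 for Apoe against 1272 in Dscr1KO replicate 1. Xist is made from the inactive X chromosome of females. It read from 4104 to 5385.2 in both ApoeKO arrays, both intact Dscr1KO arrays and double KO replicate 1. On the other arrays it read 19.6 or less. Sex and genotype thus cannot be told apart for ApoeKO and Dscr1KO against WT, intact. Nor can sex and suturing within Dscr1KO, where the sutured array read 6 for Xist. Markers of corneal epithelium, the tissue's outer layer, summed to between 35001 and 52182.6 on every intact array. Cornified, skin-type epithelium markers summed to between 15984.2 and 25659.3 on the 4 intact arrays without Dscr1 and to between 302.1 and 390.7 on the 4 intact arrays with Dscr1, and to between 352.2 and 901.6 on the sutured arrays, 357.8 in sutured Dscr1KO. Lens markers, 10 genes, summed to 10102.8 and 7089.3 in intact WT and 5672.6 in sutured WT at day 7, and to between 55.3 and 888.3 on the other 9 arrays. Photoreceptor markers, of which 3 of 7 were tested, summed to 4217.4 in double KO replicate 1 and to 315.1 or less on the other 11 arrays. The part of these tissues in the results below was not tested.

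Loss of Dscr1 was examined first because its product acts on the phosphatase that controls NFAT proteins. The average over Apoe genotype sets 4 intact arrays without Dscr1 (Dscr1KO and double KO) against 4 with it (WT and ApoeKO). Of the 5 NFAT genes 1 rose and 1 fell, at an adjusted p under 0.05 (limma, Benjamini-Hochberg correction across the 12706 genes tested). Among all tested genes 31.7% passed in this comparison, 16.3% upward and 15.4% downward, so 2 of 5 is close to the share among all genes. The gene that fell was Nfatc2, and the gene that rose was Nfatc1. Nfatc4, Nfatc3 and Nfat5 did not pass. In whole tissue, fewer cells of a type and less RNA per cell cannot be told apart.

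**Figure D1:**
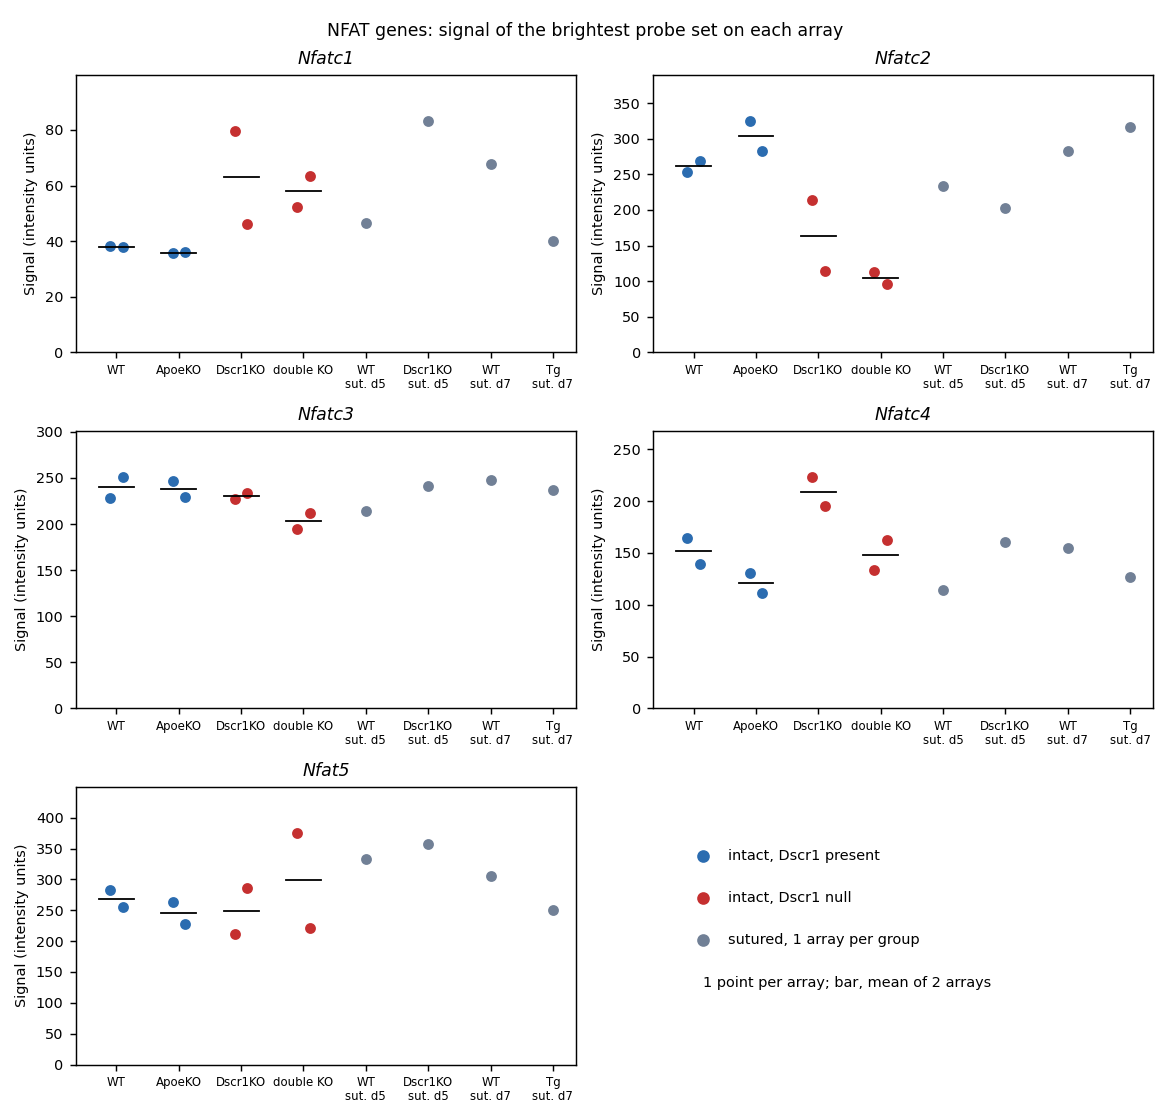
Signal of the brightest probe set of each NFAT gene (y axis, intensity units, starting at 0) on each of 12 arrays, by group (x axis; sut., sutured; d5 and d7, day 5 and day 7). Each point is 1 array and the bar is the mean of 2 arrays; Nfatc2 lies between 95.2 and 213.3 on the 4 intact arrays without Dscr1 and between 253.4 and 325.4 on the 4 intact arrays with it.

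Nfatc2 encodes the NFAT protein first purified from T cells, where it drives cytokine genes. The gene lies on chromosome 2, and its upstream windows are shown because it was the family member with the largest change. RefSeq (GRCm38.p6) gives it 2 start sites on the minus strand, with upstream windows at chr2:168601658-168601907 (start 1) and chr2:168590366-168590615 (start 2). Each window holds the 250 bases before the start, written 5′ to 3′ on the strand of the gene. Capitals mark GGAAA, the core letters that NFAT proteins are known to bind, or TTTCC where the match is on the other strand.
Nfatc2 start 1: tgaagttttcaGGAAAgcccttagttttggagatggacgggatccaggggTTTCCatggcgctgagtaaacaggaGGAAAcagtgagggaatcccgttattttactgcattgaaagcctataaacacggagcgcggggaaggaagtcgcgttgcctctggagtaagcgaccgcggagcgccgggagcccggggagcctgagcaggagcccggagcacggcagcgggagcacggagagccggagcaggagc
Nfatc2 start 2: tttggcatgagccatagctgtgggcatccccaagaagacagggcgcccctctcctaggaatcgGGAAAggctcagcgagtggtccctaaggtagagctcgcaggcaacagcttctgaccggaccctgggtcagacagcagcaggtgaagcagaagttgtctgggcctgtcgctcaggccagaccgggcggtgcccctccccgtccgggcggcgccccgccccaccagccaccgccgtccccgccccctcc
The core occurs 3 times in the first window and 1 time in the second. Of 32851 windows of this length in the RefSeq table, 55.6% hold at least 1 match, so a match is common. The windows of Nfatc3 hold 1 and 0 matches, the window of Nfatc4 holds 3 and that of Nfat5 holds 2. A match of these letters is a description and not a binding site.

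The Nfatc2 probe set read 253.4 and 269.2 in WT, and 325.4 and 283.3 in ApoeKO. Without Dscr1 it read 213.3 and 114.5 (Dscr1KO) and 112.9 and 95.2 (double KO). Every intact cornea without Dscr1 was below every intact cornea with it, and the lowest values were those of double KO. How many of all genes separate in this way was not counted. The means were 134 ± 53.6 without Dscr1 and 283 ± 30.9 with it (SD, n = 4 each), a 2.18-fold difference. On the scale of log2(intensity + 3.6), used for all differences below, Nfatc2 fell by 1.12 ± 0.20 (SE; limma adjusted p = 0.00480). This call held in each of the 18 alternative fits, with adjusted p-values up to 0.0283 and differences from -1.34 to -0.85.

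The fall of Nfatc2 was next read in each pair of genotypes. Double KO against ApoeKO, groups that share loss of Apoe by label, gave -1.52 ± 0.28 (limma adjusted p = 0.00992), where 19.6% of all genes passed, 8.61% downward, and Nfatc2 was the 1 NFAT gene of 5 to do so. The means were 104 ± 12.5 in double KO and 304 ± 29.8 in ApoeKO (SD, n = 2 each). That call was lost without the library labelled ApoeKO replicate 1 (adjusted p = 0.0765), which read Apoe like WT, without ApoeKO replicate 2 (adjusted p = 0.0650) and on arrays with Xist alone (-1.40, adjusted p = 0.104), with adjusted p-values over all alternatives from 0.000778 to 0.104. Double KO against WT gave -1.30 ± 0.28 (limma adjusted p = 0.0161), where 20.1% of all genes passed, 8.74% downward, and Nfatc2 was again the 1 of 5. This call was lost without WT replicate 1 (0.0867), WT replicate 2 (0.116) or double KO replicate 2 (0.0659) and with Xist as a covariate (0.0668), as adjusted p-values in a range from 0.00115 to 0.116. Within double KO, the array with Xist read 112.9 and the array without it 95.2, both under the lowest value with Dscr1.

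Dscr1KO against WT was the least even of these pairs. None of the 5 NFAT genes passed (1 of 5 at an unadjusted p under 0.05), where 11.8% of all genes passed. Nfatc2 differed by -0.73 ± 0.28 (limma adjusted p = 0.131), with 163.9 ± 69.9 in Dscr1KO and 261 ± 11.2 in WT (SD, n = 2 each). The Dscr1KO arrays disagree: without Dscr1KO replicate 1 the difference was -1.16 (adjusted p = 0.00498), and without Dscr1KO replicate 2, the array with conflicting labels, it was -0.29 (adjusted p = 0.431). Over all alternatives the adjusted p ran from 0.00498 to 0.535. Double KO against Dscr1KO gave -0.58 ± 0.28 (limma adjusted p = 0.514).

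The other Nfatc2 probe sets give no second reading of this fall. Of its 6 probe sets 2 passed the filter on dim signals, and the second read between 10.6 and 26.0 on all 12 arrays. It differed by -0.14 ± 0.19 for the Dscr1 average (limma adjusted p = 0.639 over 22721 probe sets). On this probe set double KO read 18.0 and 21.3, above WT at 14.5 and 17.5, and below ApoeKO at 26.0 and 24.8. The other 4 read 14.3 or less on every array. The sources used here do not say which part of the transcript each probe set covers.

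Nfatc1 encodes the NFAT protein best known for heart valve formation and for osteoclast differentiation. It read 38.1 and 37.8 in WT, and 35.6 and 36.0 in ApoeKO. The Dscr1KO arrays read 79.8 and 46.3, the double KO arrays 52.3 and 63.5. The arrays with Dscr1 lay close together, and the 4 without it spread widely. The means were 60.5 ± 14.7 and 36.9 ± 1.26 (SD, n = 4 each), a 1.55-fold difference. Nfatc1 rose by 0.64 ± 0.20 in the Dscr1 average (limma adjusted p = 0.0480), just inside the threshold.

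The rise of Nfatc1 depended on the fit. It passed in 6 of 10 other settings, and was outside the threshold with quantile normalization (0.50, adjusted p = 0.0955), with no filter (adjusted p = 0.0726), with a replicate block (adjusted p = 0.0663) and with Xist as a covariate (adjusted p = 0.0678). With 1 array left out it passed in 1 of 8 fits, that without Dscr1KO replicate 2 (0.82, adjusted p = 0.0102). Leaving out WT replicate 1 or 2 gave an adjusted p of 0.130 or 0.141, and leaving out the library labelled ApoeKO replicate 1 or that labelled replicate 2 gave 0.130 or 0.131. It was 0.0664 without Dscr1KO replicate 1, 0.0639 without double KO replicate 1 and 0.105 without double KO replicate 2. The differences stayed above 0 in all 18 alternatives, from 0.45 to 0.82. Dscr1KO against WT gave 0.63 ± 0.29 (limma adjusted p = 0.190) and double KO against ApoeKO 0.64 ± 0.29 (limma adjusted p = 0.162).

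Of the 5 Nfatc1 probe sets 4 passed the filter. In order of brightness they differed by 0.64 ± 0.20, 0.59 ± 0.21, 0.43 ± 0.26 and 0.68 ± 0.32 in the Dscr1 average. The brightest alone passed when every probe set was tested by itself (limma adjusted p = 0.0486, against 0.0757, 0.259 and 0.149 for the others). The second probe set read from 21.8 to 33.2 with Dscr1 and from 33.6 to 55.4 without it. The 2 dimmest of the 4 stayed at 19.6 and 21.7 or less on the intact arrays, and their groups overlapped.

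**Figure D2:**
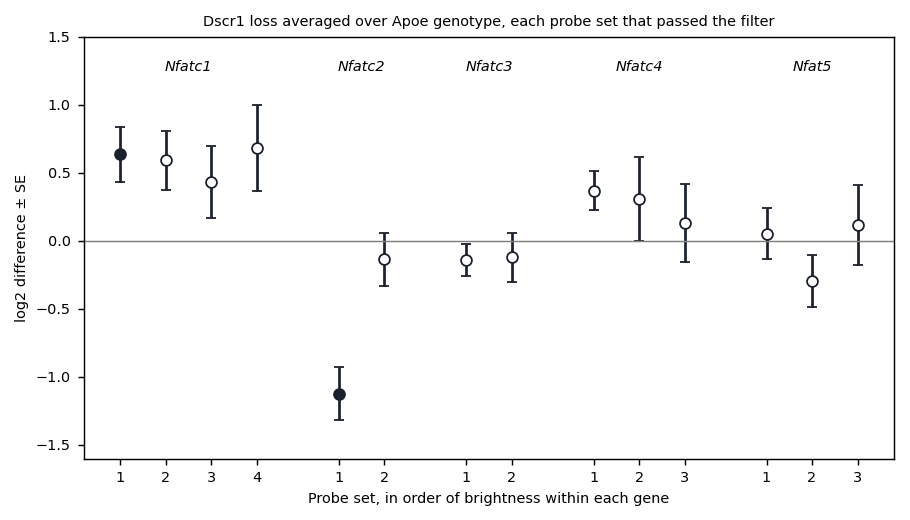
Difference for Dscr1 loss averaged over Apoe genotype (y axis, log2, points with SE bars) for each of the 14 NFAT probe sets that passed the filter, ordered by brightness within each gene (x axis). Filled points have a limma adjusted p under 0.05; all 4 Nfatc1 probe sets lie above 0, while the second Nfatc2 probe set lies at -0.14 against -1.12 for the first.

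Nfatc4, an NFAT protein known from heart and nervous tissue, read 164.2 and 139.7 in WT and 130.2 and 111.2 in ApoeKO. Its Dscr1KO values were 223.3 and 195.0, and its double KO values 133.4 and 162.9. Both Dscr1KO arrays were the highest of the series, and double KO lay within the range of WT and ApoeKO. The Dscr1 average was 0.37 ± 0.14 (limma adjusted p = 0.0774), with overlapping groups. Dscr1KO against WT gave 0.45 ± 0.20 (limma adjusted p = 0.170) and double KO against ApoeKO 0.29 ± 0.20 (limma adjusted p = 0.341). The dimmer Nfatc4 probe sets that passed the filter differed by 0.31 ± 0.31 and 0.13 ± 0.29.

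Nfatc3, the NFAT protein with a broad tissue distribution, varied least of the 5 by the brightest probe sets. It read between 194.1 and 251.0 over all 12 arrays, a range between group means of 0.28 on the log2 scale. The lowest intact values were those of double KO, at 194.1 and 212.3, against 246.4 and 229.3 in ApoeKO. The Dscr1 average was -0.14 ± 0.11 (limma adjusted p = 0.364; 95% interval -0.40 to 0.11). Dscr1KO against WT differed by -0.06 ± 0.16 (limma adjusted p = 0.841), and double KO against ApoeKO by -0.22 ± 0.16 (limma adjusted p = 0.347). The dimmer Nfatc3 probe set read between 35.1 and 59.3 and differed by -0.12 ± 0.18 in the Dscr1 average. Its double KO arrays read 54.4 and 35.1, and double KO against ApoeKO gave 0.09 ± 0.25, the other direction.

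Nfat5, the tonicity-responsive member that acts without calcineurin, read 282.8 and 254.9 in WT and 263.8 and 228.0 in ApoeKO. Among the corneas without Dscr1, Dscr1KO gave 211.5 and 285.9, and double KO 374.9 and 221.9. Replicates of the groups without Dscr1 lay far apart and on both sides of the arrays with Dscr1. The highest, 374.9, came from double KO replicate 1, the array with the photoreceptor markers. The Dscr1 average was 0.05 ± 0.19 (limma adjusted p = 0.853; 95% interval -0.39 to 0.49), and its sign turned when 1 array was left out. Dscr1KO against WT gave -0.12 ± 0.27 and double KO against ApoeKO 0.23 ± 0.27 (limma adjusted p = 0.793 and 0.583), and the second of these was -0.14 without double KO replicate 1. The part of the photoreceptor signal in this was not tested. The 2 dimmer Nfat5 probe sets that passed the filter differed by -0.30 ± 0.19 and 0.12 ± 0.29, in opposite directions.

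**Figure D3:**
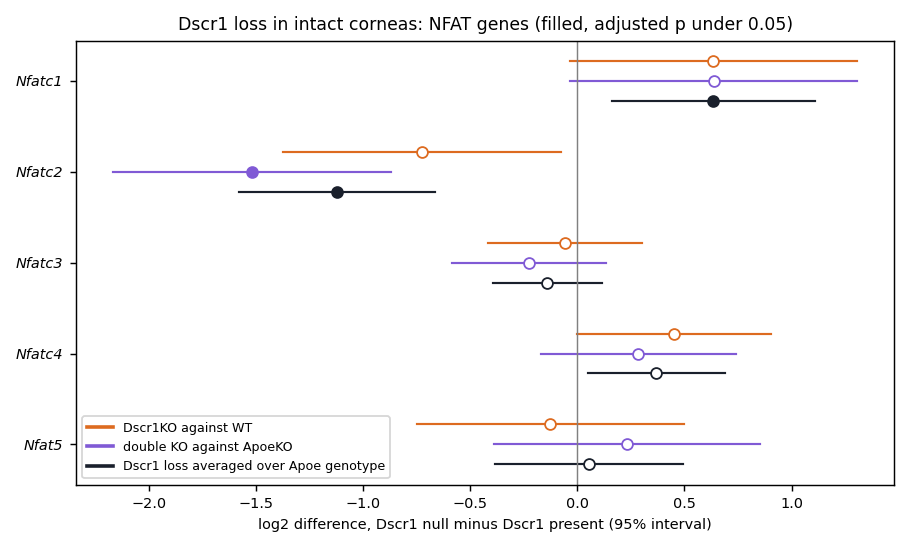
Difference without Dscr1 minus with Dscr1 (x axis, log2; points with 95% intervals) for the 5 NFAT genes (y axis) in Dscr1KO against WT, double KO against ApoeKO and their average. Filled points have a limma adjusted p under 0.05; they are Nfatc2 at -1.52 in double KO against ApoeKO, and Nfatc2 at -1.12 and Nfatc1 at 0.64 in the average.

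Loss of Apoe was read in ApoeKO against WT and in double KO against Dscr1KO. None of the 5 NFAT genes passed in either comparison by limma, where 0.0236% of all genes passed in each; at an unadjusted p under 0.05 there were 0 of 5 and 1 of 5. ApoeKO against WT gave 0.21 ± 0.28 for Nfatc2, -0.08 ± 0.29 for Nfatc1 and -0.32 ± 0.20 for Nfatc4. These directions rest in part on the library labelled ApoeKO replicate 1, whose Apoe signal goes against its label. The Nfatc2 arrays of ApoeKO were both above those of WT, and those of double KO were both below those of Dscr1KO. Such orders were not counted over all genes. The interaction of both losses was -0.79 ± 0.40 for Nfatc2 (limma adjusted p = 0.688). None of the 5 genes passed in the interaction (0 of 5 at an unadjusted p under 0.05), where 0.00787% of all genes passed.

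Suturing of the cornea, which draws new vessels and leukocytes into the tissue, was fitted on 7 arrays with Dscr1 genotype as a term: WT and Dscr1KO intact, and their 3 sutured arrays. None of the 5 NFAT genes passed, and 0% of all 12706 genes did in this limma fit, with 0 of 5 and 1251 of all genes at an unadjusted p under 0.05. Nfat5 read 333.0 and 305.7 in sutured WT and 358.1 in sutured Dscr1KO, above all 4 intact arrays, which read from 211.5 to 285.9. The means were 332 ± 26.2 (SD, n = 3) and 259 ± 34.5 (SD, n = 4), and the fitted difference was 0.36 ± 0.16 (limma adjusted p = 0.513). The sutured Tg cornea, which is not in this fit, read 249.9, inside the intact range. The dimmer Nfat5 probe sets that passed the filter did not repeat this difference, at -0.23 ± 0.21 and 0.06 ± 0.31. On the brighter of them the sutured arrays of the fit read 111, 90.4 and 109.7, against 120.1 and 127.8 in intact WT and 94.2 and 154.4 in intact Dscr1KO.

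Nfatc1 read 46.4 and 67.7 in sutured WT at day 5 and day 7, against 38.1 and 37.8 in intact WT. In sutured Dscr1KO it read 83.3, the highest value of the series, against 79.8 and 46.3 in intact Dscr1KO. The fitted difference was 0.49 ± 0.24 (limma adjusted p = 0.542). Nfatc2 differed by 0.13 ± 0.24, Nfatc3 by -0.01 ± 0.13 and Nfatc4 by -0.26 ± 0.17 (limma adjusted p = 0.880, 0.995 and 0.630). Sutured Dscr1KO read 202.3 for Nfatc2, below the 233.2 of sutured WT at day 5 and between the intact Dscr1KO arrays. For suturing, the dimmer probe sets that passed the filter gave -0.23 ± 0.24 for Nfatc2 and -0.29 ± 0.20 for Nfatc3. Those of Nfatc4 gave 0.12 ± 0.25 and 0.12 ± 0.35, and those of Nfatc1 0.29 ± 0.24, 0.74 ± 0.31 and 0.35 ± 0.26. Directions for Nfatc2 and Nfatc4 thus held for the brightest probe set only.

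The sutured genotypes have 1 array each, so their differences have no replicate check. At day 5 the sutured Dscr1KO cornea exceeded sutured WT by 0.80 for Nfatc1 (83.3 against 46.4), 0.48 for Nfatc4 (160.8 against 114.1), 0.17 for Nfatc3 and 0.10 for Nfat5, and differed by -0.20 for Nfatc2. The cornea labelled Tg read 548.3 for Rcan1, the gene the transgene is named for, against 579.7 in sutured WT at day 7, so the signal was not higher in it. Whether the probe set reads the transgene's transcript is unstated in the labels. At day 7 the cornea labelled Tg differed from WT by -0.71 for Nfatc1 (40 against 67.7), -0.29 for both Nfatc4 and Nfat5, -0.07 for Nfatc3 and 0.16 for Nfatc2. For Nfatc1, 10.6% of all genes differed at least as far from 0 between the day 5 arrays and 10.01% between the day 7 arrays. For Nfatc2 these shares were 58.3% and 61.3%. Sutured WT at day 7 differed from day 5 by 0.51 for Nfatc1, 0.43 for Nfatc4, 0.28 for Nfatc2, 0.21 for Nfatc3 and -0.12 for Nfat5.

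Ordered by group, the levels of each gene overlap for the most part. The groups were ordered by mean log2 value, and each step to the next group was set against the pooled SD of the replicate pairs. For Nfatc2 the order ran from sutured Tg at 316.1 through ApoeKO, sutured WT at day 7, intact WT, sutured WT at day 5, sutured Dscr1KO and Dscr1KO to double KO at 104. The last 2 steps exceeded the SD of 0.33, from sutured Dscr1KO to Dscr1KO and from Dscr1KO to double KO. For Nfatc1, with an SD of 0.28, the steps below sutured Dscr1KO and below double KO exceeded it, and intact WT and ApoeKO stood last. For Nfatc4 the steps below Dscr1KO and below double KO exceeded the SD of 0.16, and for Nfatc3 the step below Dscr1KO exceeded the SD of 0.08. No step of Nfat5 exceeded its SD of 0.32.

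Markers of other cell types also differed between the intact arrays with and without Dscr1, and are given here as levels. Blood endothelium, 14 markers of vessel lining, summed to between 1454.6 and 2257 on the intact arrays without Dscr1, 272.7 and 371.7 on those with it and 512.1 and 1535.6 on the sutured arrays. Of its 13 tested markers 11 rose in the Dscr1 average, where 16.3% of all tested genes rose and 15.4% fell. A marker that is dim with Dscr1 passes the filter only if it is bright on other arrays. Counts of rises in the marker lists, here and below, are thus tilted upward and are a description. Macrophage markers, 12 genes, summed to between 4242.6 and 8162.5, 595.8 and 1687.2, and 2595.9 and 6098.2 in these sets of arrays, and 11 of 12 rose. Neutrophil markers summed to between 8827.7 and 19925.8 without Dscr1 and 155.7 and 305.2 with it, and 8 of 8 tested rose. After suturing they summed to 1303 in Dscr1KO against 11108.1 in WT at day 5, the reverse of the order on the intact arrays. The corneal endothelium, the inner layer of the cornea, went the other way. Its 8 markers summed to between 2111.5 and 3727.9 without Dscr1 and 3972.5 and 5824.2 with it. Of these markers 6 fell while 1 rose. In sutured Dscr1KO the sum was 6130, the highest of the 12 arrays, against 4450.6 in sutured WT at day 5. Stromal keratocyte markers summed to between 11994.4 and 16055.1 without Dscr1 and 15496.7 and 22507.1 with it, and 4 of 10 fell while 2 rose. Col8a2 is in both this list and that of corneal endothelium, so the sums share a gene.

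Tissues that adjoin the cornea moved as well. In the Dscr1 average 8 of 10 lens markers and 5 of 6 pigment cell markers fell. For lens it was WT that stood apart among the intact arrays, at 10102.8 and 7089.3. The lens sums of ApoeKO, which has Dscr1, were 473.7 and 117, inside the range of 55.3 to 524.1 without Dscr1. Pigment cell markers summed to between 233.6 and 493.1 without Dscr1 and 720.8 and 922.5 with it, and to 1773.9 in sutured Dscr1KO. Conjunctiva and goblet cell markers summed to between 18040.3 and 24091.6 without Dscr1, 6413.4 and 8942.4 with it and 10551.8 and 15331.2 on the sutured arrays, and of 7 tested 5 rose and 1 fell. Smooth muscle and pericyte markers summed to between 2091.9 and 5311.3, 543.2 and 882, and 1104.6 and 3293.3 in these sets of arrays, and 3 of 7 tested rose.

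Cell types for which NFAT genes are best known were looked at in the same way. T and NK cell markers, 11 genes, summed to between 186.2 and 373.5 without Dscr1, 86.9 and 150.9 with it and 82.4 and 166.3 on the sutured arrays. The T cell receptor components Cd3d, Cd3e, Cd3g and Cd247 and the coreceptor Cd4 lay below the filter in their mean, with medians over 12 arrays from 1.45 to 7.85 and highest single values of 68.4, 22.7, 93.5, 35.1 and 16.8, and 1 of 3 tested markers rose. Osteoclast markers summed to between 790.5 and 1800.7 without Dscr1 and 202.6 and 321.9 with it, and 4 of 4 tested rose. Among these, Itgb3 was under the filter value in its mean over the intact arrays with Dscr1. Calcr, Oscar, Dcstamp and Ocstamp, which define mature osteoclasts, read 12.8 or less on every array. The part of any of these cell types in the Nfatc1 and Nfatc2 differences was not tested.

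**Figure D4:**
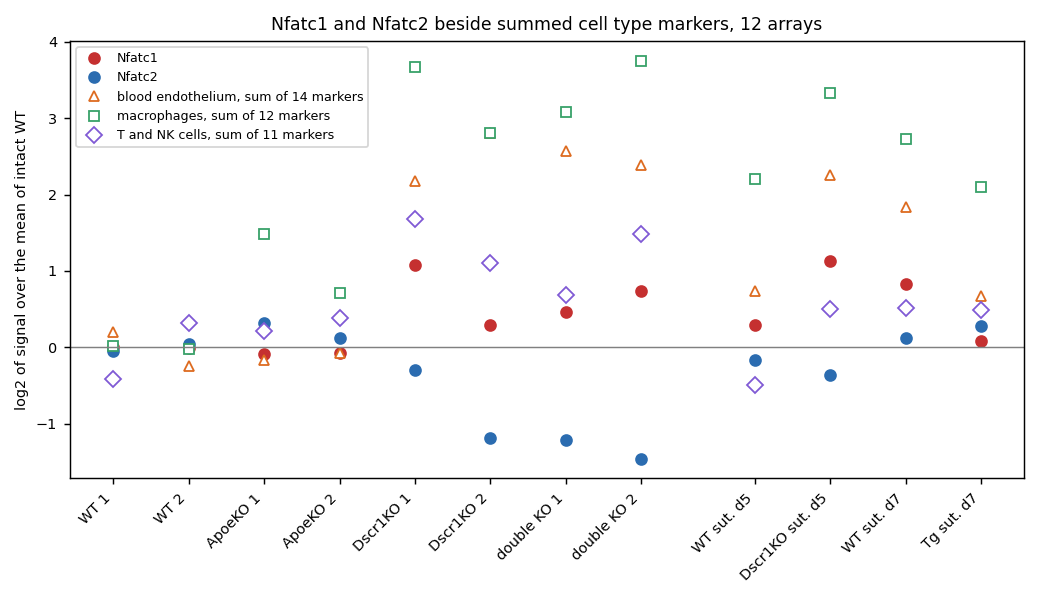
Signal of Nfatc1 and Nfatc2 and summed signal of blood endothelium, macrophage and T and NK cell markers on each of 12 arrays (x axis; sut., sutured), as log2 of the ratio to the mean of intact WT (y axis). Each symbol is 1 array; on the 4 intact arrays without Dscr1 the markers and Nfatc1 lie above 0 and Nfatc2 lies below 0.

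The genes around NFAT were read from 6 lists, each given by its counts in the Dscr1 average and, where no tested member is dim on one side, its median log2 difference, beside a median of -0.02 and a share of 31.7% passing among all genes tested. Of 9 tested calcineurin subunit and regulator genes, 0 rose and 2 fell. Ppp3cc was under the filter value in its mean over the intact arrays with Dscr1. With no filter 0 of all 11 rose and 2 fell (median 0.08). Rcan1 itself read from 581.3 to 668.2 on the intact arrays with Dscr1 and from 331.7 to 477.5 on those without it, and fell by 0.74 ± 0.14 (limma adjusted p = 0.00634). Whether its probe set lies within the deletion is unstated in the sources used here. Ppp3ca, a catalytic subunit of calcineurin, fell by 0.58 ± 0.11 (limma adjusted p = 0.00763), from between 929.8 and 976.3 with Dscr1 to between 570.2 and 718.8 without it.

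The promoter at the second Rcan1 start is shown because it is the one known to respond to NFAT. It lies on the minus strand at chr16:92400079-92400328 (GRCm38.p6, RefSeq), and capitals mark the NFAT core as above.
Rcan1 start 2: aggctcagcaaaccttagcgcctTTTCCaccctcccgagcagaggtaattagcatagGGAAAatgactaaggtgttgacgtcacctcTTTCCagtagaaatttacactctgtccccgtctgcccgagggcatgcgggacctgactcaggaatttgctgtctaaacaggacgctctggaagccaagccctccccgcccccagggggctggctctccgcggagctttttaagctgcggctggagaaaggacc
The core occurs 3 times here and 0 times before the first start. TGANTCA, the letters bound by the AP-1 proteins Fos and Jun that partner NFAT, occurs 1 time (on either strand, without overlapping a core match), and 6.75% of all windows hold it. It occurs 0 times in the windows of Nfatc2, Nfatc3, Nfatc4 and Nfat5.

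Of 15 tested genes for NFAT kinases and nuclear transport, 0 rose and 3 fell (median -0.01). Homer2, a scaffold protein that competes with calcineurin for NFAT, fell by 2.20 ± 0.14 (limma adjusted p = 8.16e-05). It read from 1185.5 to 1757.1 on the intact arrays with Dscr1, from 236.9 to 401.9 on those without it and 640.7 in sutured Dscr1KO against 814.5 in sutured WT at day 5. Xpo1, the exporter that carries NFAT out of the nucleus, fell by 0.65 ± 0.20 and Gsk3b, a kinase that rephosphorylates NFAT, by 0.32 ± 0.10 (limma adjusted p = 0.0425 and 0.0458). Both of these lost the call in most alternatives, while Homer2 kept it in all 18. The list's count was 1 when either WT array, either ApoeKO array or double KO replicate 1 was left out, and 6 without Dscr1KO replicate 1.

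Of 11 tested genes for calcium entry upstream of calcineurin, 2 rose and 2 fell (median 0.49). Plcg1, a phospholipase that starts calcium release, rose by 0.65 ± 0.12, and Stim2, a calcium sensor of the endoplasmic reticulum, by 0.62 ± 0.11 (limma adjusted p = 0.00576 and 0.00449). Trpv4, a calcium channel that senses osmotic and mechanical stress, fell by 0.85 ± 0.16, and Itpr3, a calcium release channel, by 0.68 ± 0.12 (limma adjusted p = 0.00716 and 0.00424). The list's count was 7 without Dscr1KO replicate 1.

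The filter on mean signal is taken over all 12 arrays, the sutured ones included. It can keep a gene that is dim on one side of the comparison only if it is bright on other arrays. This holds for 8 genes of these lists, all dim on the intact arrays with Dscr1. Il6 read 2.5 or less on those arrays and 6.8, 82.4, 82.5 and 11.2 on the intact arrays without Dscr1. On the sutured arrays Il6 read from 36.8 to 254.2. Counts that include such genes are tilted towards a rise and are given as a description. The share of 31.7% passing among all genes belongs to the filtered fit. No such share is given for the fit with no filter, so its counts, above and below, are a description too.

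Of 15 tested genes for nuclear partners of NFAT, 8 rose and 1 fell. Fosl1 and Batf were under the filter value in their mean over the intact arrays with Dscr1. Fitted with no filter, 9 of all 20 partners with a probe set rose and 1 fell (median 0.78, against 0.02 for all genes). Fosl1, an AP-1 subunit, rose by 2.58 ± 0.75, Batf, an AP-1 factor of leukocytes, by 2.01 ± 0.35, Irf8, a factor of myeloid cells, by 1.96 ± 0.41, and Mef2c by 1.68 ± 0.22 (limma adjusted p = 0.0342, 0.00458, 0.00950 and 0.00151). The fall was that of Fosl2, another AP-1 subunit. Fosl1 rested on few arrays: it read 4.4 in Dscr1KO replicate 1 and 107.4 in replicate 2, against 4.5 or less on the intact arrays with Dscr1. On the sutured arrays Fosl1 read between 13.3 and 146.2. The sizes for Fosl1 and Batf depend on the added constant, from 1.89 to 3.32 and from 1.36 to 2.68 over the pseudocounts tried. The call of Fosl1 was lost in 6 of the 8 fits with 1 array left out, those without a WT, ApoeKO or double KO array (adjusted p from 0.0525 to 0.114). Macrophage markers, given above, moved with the leukocyte factors of this list, and their part was not tested.

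Genes reported as targets of calcineurin and NFAT have 26 members with a probe set used here, of which 15 were tested and 12 rose and 1 fell. Egr2, Egr3, Nr4a1, Itgb3 and Il6 were under the filter value in their mean over the intact arrays with Dscr1. Fitted with no filter, 12 of all 26 rose and 1 fell, with a median of 0.74 against 0.02 for all genes. Nr4a1, a nuclear receptor of the immediate early response, read between 44.9 and 542.1 on the intact arrays without Dscr1. On those with it, Nr4a1 read 9.7 or less, mostly under the filter at an intensity of 9.51. On the sutured arrays Nr4a1 read between 61.1 and 785.4. Its fitted rise of 4.31 ± 0.74 depends on the added constant, from 3.55 to 5.06 over the pseudocounts tried, and that of Egr3 from 2.24 to 3.51. Mmp9, a matrix protease of leukocytes, rose by 3.88 ± 0.22, Icam1, an adhesion molecule of activated endothelium, by 2.97 ± 0.17, and Egr3, an early growth response factor, by 2.93 ± 0.33. The limma adjusted p was 0.00429, 4.24e-05, 4.34e-05 and 0.000735. The gene that fell was F3, tissue factor, a known NFAT target of endothelial cells (-1.91 ± 0.36). The list's count of 13 was 8 without WT replicate 1. The members that rose include leukocyte and endothelial genes whose markers rose too (above), and 3 of the 15, Acp5, Ctsk and Itgb3, are also in the osteoclast marker list.

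**Figure D5:**
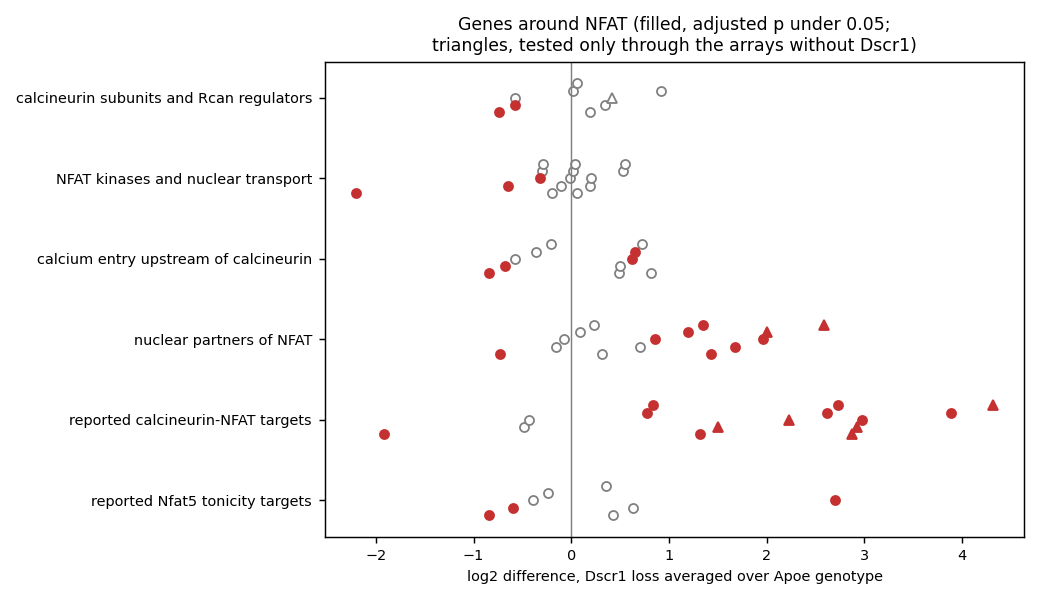
Difference for Dscr1 loss averaged over Apoe genotype (x axis, log2) of each tested gene in 6 lists around NFAT (y axis). Filled points have a limma adjusted p under 0.05. Triangles are genes under the filter value in their mean over the intact arrays with Dscr1. Of these, 5 lie among reported calcineurin-NFAT targets, 2 among nuclear partners and 1 among calcineurin genes. Some of them were bright on sutured arrays too, which the figure's heading leaves out.

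Of 8 tested genes reported to respond to Nfat5 and tonicity, 1 rose and 2 fell (median 0.06). S100a4, a calcium-binding protein also made by leukocytes and fibroblasts, rose by 2.70 ± 0.39, while Hspa1a, a heat shock protein, fell by 0.84 ± 0.21 and Aqp5, the water channel of corneal epithelium, by 0.60 ± 0.13 (limma adjusted p = 0.00218, 0.0190 and 0.0105). The call of Hspa1a was lost without WT replicate 2 (adjusted p = 0.0824), ApoeKO replicate 2 (0.0682) or double KO replicate 1 (0.0605), and that of Aqp5 without the library labelled ApoeKO replicate 1 (0.0550). Their adjusted p-values over all alternatives ran from 0.00837 to 0.0824 and from 0.00184 to 0.0884. The list's count was 5 without double KO replicate 2.

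In the suturing comparison 0 genes of these 6 lists passed in the limma fit, and 10 of their 73 tested genes passed at an unadjusted p under 0.05, 13.7% against 9.85% of all genes: 4 nuclear partners, 4 reported targets, 1 calcineurin regulator and 1 Nfat5 target. Nr4a1 read 589.3, 90.2 and 785.4 in sutured WT at day 5, at day 7 and in sutured Dscr1KO, a fitted difference of 4.08 ± 1.10 (limma adjusted p = 0.410). Fosb, an AP-1 subunit, differed by 3.09 ± 0.58 and Rcan2, a relative of Rcan1, by 1.13 ± 0.27 (limma adjusted p = 0.373 and 0.398). Slc5a3, the inositol transporter induced by Nfat5, read 310.9 and 173.7 in sutured WT at day 5 and day 7 and 615.7 in sutured Dscr1KO, and differed by 0.97 ± 0.29 (limma adjusted p = 0.434). On WT arrays alone, suturing gave 2.38 for S100a4 (adjusted p = 0.00150), and Nr4a1 and Il6 passed too (adjusted p = 0.0296 and 0.0364). Intact WT read 0.7 and 5 for Nr4a1 and 0.2 and 0.6 for Il6, near or below the added constant of 3.6, so these 2 have no readable fold; over all alternatives the adjusted p of these genes ran up to 0.866. Without the sutured Dscr1KO array, S100a4 passed as well (adjusted p = 0.00626).

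The genes most like each NFAT gene were found among 12701 genes by Pearson's r of log2 values over the 12 arrays, which share 8 groups and are not independent points. Nfatc2 was closest to Rgs10, a regulator of G protein signalling (r = 0.97), followed by Dgcr6, Morn2 and Sri (r = 0.96 each). For Nfatc2 194 genes had r above 0.9 and 95 below -0.9, for Nfatc1 23 and 1, and for Nfatc3, Nfatc4 and Nfat5 1 each above 0.9. Nfatc1 was closest to Eva1b (r = 0.95), Tjap1, Lipa, a lysosomal lipase, and Dock4 (r = 0.94 each). Nfat5 was closest to Errfi1, an inhibitor of the epidermal growth factor receptor (r = 0.94), Nfatc3 to Ube2l6 (r = 0.91) and Nfatc4 to Slc38a10 (r = 0.90). Among the NFAT genes themselves, r ranged from -0.40 for Nfatc2 with Nfatc4 to 0.66 for Nfatc2 with Nfatc3, and was -0.38 for Nfatc1 with Nfatc2.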

How the data were processed

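Per the labels' protocols, total RNA of whole corneas was made into biotinylated cRNA and read on Affymetrix arrays. The authors deposited linear probe-set intensity values, which on each array have a mean of 100 with 2% trimmed at each end; no source used here names the software. Of 45101 probe sets, 34958 carry 1 symbol in the platform table, 932 several and 9211 none. The brightest with 1 symbol stood for each gene. Values were transformed as log2(intensity + 3.6), the 20th percentile of all values, and genes at or above the 40th percentile of mean log2 were tested, which kept 12706 genes and 14 of 23 NFAT probe sets. limma 3.58.1 in R 4.3.3 fitted 1 coefficient per intact group, moderated along a trend with intensity, and p-values were adjusted by Benjamini-Hochberg over all genes with a threshold of 0.05. Suturing was fitted on 7 arrays. Plots used matplotlib 3.10.9 (python 3.11.15). Fits were tested on simulated data. Genes, lists and tests were chosen with earlier results of these data known.

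Samples were grouped by the labels. Beside the NFAT genes, Rcan1 and Apoe, the text names up to 4 genes per list with the largest change among those that passed, or at most 2 of lowest p where none did, and the 4 closest genes by r; Fosl2, F3, Acp5, Ctsk, Itgb3, Egr2 and Ppp3cc were named after their values were seen. Alternatives were 2 other pseudocounts, quantile normalization, other filters, no trend, every probe set, only the groups compared, a replicate block, a term for Xist, arrays with Xist only, and leaving out arrays; a lone array is then assumed to vary like the other groups. The number of arrays limits the precision.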

Additional observations from a re-analysis of the deposited data

Results flagged for a closer look

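For Nfatc2, the arrays of ApoeKO were both above those of WT, while the arrays of double KO were both below those of Dscr1KO. These are opposite orders that the interaction test did not separate, and how many of all genes show such orders was not counted. The interaction term was -0.79 on the log2 scale, a size of 0.79, with a limma adjusted p = 0.688, and adjusted p-values from 0.0993 to 0.9997 over the alternatives. With 1 array left out the interaction ran from -1.23 to -0.35 and double KO against Dscr1KO from -1.02 to -0.14, the smaller sizes without Dscr1KO replicate 1. Groups have 2 arrays each, and the array labelled ApoeKO replicate 1 read Apoe at the level of WT, while Dscr1KO replicate 2 carries conflicting labels.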

How the results depend on the processing

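The fall of Nfatc2 in the Dscr1 average kept its direction and its call in all 18 alternatives, and the rise of Nfatc1 kept its direction. The number of NFAT genes passing in the Dscr1 average, 2, was 1 with quantile normalization, with no filter, with Xist as a covariate and with the replicate block. It was from 1 to 2 with 1 array left out. The count of 1 in double KO against ApoeKO was 0 on arrays with Xist only and from 0 to 1 with 1 array left out. In double KO against WT it was 0 with Xist as a covariate and from 0 to 1 with 1 array left out, and the count of 0 in Dscr1KO against WT was from 0 to 1. Same-numbered arrays did not deviate together (correlations from -0.05 to 0.07), so numbers do not pair the arrays. No paired analysis was possible for suturing because the sutured arrays carry no replicate number.

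The sign turned for several differences that passed in no fit, and the cause was not tested. With 1 array left out, Dscr1KO against WT ran from -0.12 to 0.0098 for Nfatc3 and from -0.34 to 0.089 for Nfat5, and double KO against ApoeKO from -0.14 to 0.60 for Nfat5. The Dscr1 average of Nfat5 ran from -0.13 to 0.24, double KO against WT for Nfatc4 from -0.18 to 0.10, and suturing from -0.040 to 0.25 for Nfatc2 and from -0.054 to 0.059 for Nfatc3. With Xist as a covariate, values were 0.090 for Nfatc3 in Dscr1KO against WT, -0.17 for Nfat5 in the Dscr1 average, 0.25 for Nfatc1 in ApoeKO against WT and 0.12 for Nfatc4 in double KO against WT. Without both libraries of doubtful Apoe level or label, they were -0.0020 for Nfat5 in the Dscr1 average and -0.040 for Nfatc2 in suturing. Suturing gave -0.023 for Nfatc2 on WT arrays alone and 0.0063 for Nfatc3 with genotype by suturing fitted.

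Among the lists, 3 NFAT kinase and transport genes passed, against 1 with quantile normalization, no filter or without both doubtful libraries. Of the partners, 9 passed, against 4 under the stricter filter, which tests fewer genes. These checks of lists, named list genes and left-out arrays were partly added after the data were seen. Signals near the added constant of 3.6 limit what can be read from them. They include those of the dim NFAT probe sets and of Nr4a1, Egr3, Il6, Batf and Fosl1 on the intact arrays with Dscr1.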
